A study of Mus musculus with 2 samples.

Results

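Mir137, Mir153, Mir9-1, Mir9-2, Mir9-3, Mir128-1, Mir128-2, Mir218-1, Mir218-2 and Mir138-1 are 10 mouse microRNA (miRNA) loci whose products are known from neurons. They were taken by symbol from the 2202 miRNA genes in the deposited count tables, and all 10 were found. The tables came from small RNA sequencing of whole adrenal glands of male B6CASTF1/J mice on postnatal day 4, which are hybrids of C57BL/6J and CAST/EiJ. The 1 group held 2 libraries, biological replicates 1 and 2, from the animals numbered male 3 and male 4, and both carried the same donor entry. The labels name no treatment, and RNA fragments shorter than 30 bases were sequenced from total RNA.

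A miRNA is cut from a hairpin precursor, and its seed, bases 2 to 8 of the mature strand, pairs with target messenger RNAs and lowers their output. miR-9, miR-128, miR-137, miR-138, miR-153 and miR-218 are best known from brain, where they act in neuron formation, synapses and the motor system. In the adrenal gland the chromaffin cells of the medulla, which secrete catecholamines, arise from the neural crest, and nerve fibres with their glia reach them from outside the gland. The RNA was from the whole gland, so the cells that held these miRNAs were not identified. In bulk tissue, fewer cells of a type and less RNA per cell cannot be told apart.

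The mature sequences are shown first because they decide which reads could be counted at a locus. Reads that fit more than 1 locus were set aside in the deposited tables and given to no gene. The RefSeq table for mouse build GRCm38.p6 held mature sequences for all 10 loci. They are printed 5′ to 3′ with the seed in capitals. miR-137 and miR-153 are each made from 1 annotated locus, so both arms of their hairpins could be counted.
miR-137-5p: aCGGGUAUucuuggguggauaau
miR-137-3p: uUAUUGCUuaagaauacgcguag
miR-153-5p: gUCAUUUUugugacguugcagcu
miR-153-3p: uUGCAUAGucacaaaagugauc

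Both arms of miR-9 are identical at 3 annotated loci, Mir9-1, Mir9-2 and Mir9-3. No mature miR-9 sequence is therefore specific to any of them.
miR-9-5p: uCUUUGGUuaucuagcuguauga
miR-9-3p: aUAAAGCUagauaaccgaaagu

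In the miR-128, miR-218 and miR-138 families 1 arm is identical at 2 loci and the other arm differs. The shared arms, miR-128-3p, miR-218-5p and miR-138-5p, are the better known products. The arms that differ are the mature sequences that belong to 1 locus.
miR-128-3p, from both Mir128 loci: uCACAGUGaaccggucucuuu
miR-128-1-5p: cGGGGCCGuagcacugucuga
miR-128-2-5p: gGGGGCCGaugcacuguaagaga
miR-218-5p, from both Mir218 loci: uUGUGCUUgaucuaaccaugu
miR-218-1-3p: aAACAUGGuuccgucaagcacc
miR-218-2-3p: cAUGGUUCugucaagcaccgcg
miR-138-5p, from Mir138-1 and Mir138-2: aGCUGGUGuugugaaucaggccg
miR-138-1-3p: cGGCUACUucacaacaccaggg

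The 10 loci thus gave 14 distinct mature sequences with 13 seeds, since miR-128-1-5p and miR-128-2-5p have the seed GGGGCCG in common. Of the 14 sequences, 9 matched 1 and 5 matched more than 1 of the 2202 annotated hairpins. Outside these loci and Mir138-2, the seed of miR-218-5p occurred in miR-7002-3p and that of miR-218-1-3p in miR-496b. Mir7002 and Mir496b had 0 counts in both libraries. By locus, 2 of the 10 had both arms specific, 5 had 1 specific arm and the 3 Mir9 loci had none.

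Counting at the paired loci rests on the bases that differ between their hairpins. The hairpins of the Mir218 and Mir128 pairs are printed with the longest stretch that each has in common with its partner in capitals, because 1 locus of each pair differed between the libraries. That stretch is 22 bases in the Mir218 pair and covers miR-218-5p, and it is 23 bases in the Mir128 pair and covers miR-128-3p.
Mir218-1, chr5:48223942-48224051, plus strand: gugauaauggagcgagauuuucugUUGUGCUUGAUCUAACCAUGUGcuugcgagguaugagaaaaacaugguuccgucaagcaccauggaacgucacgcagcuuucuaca
Mir218-2, chr11:35616816-35616925, plus strand: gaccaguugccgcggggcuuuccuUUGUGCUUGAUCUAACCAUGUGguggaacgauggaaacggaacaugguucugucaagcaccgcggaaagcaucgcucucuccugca
Mir128-1, chr1:128202361-128202430, plus strand: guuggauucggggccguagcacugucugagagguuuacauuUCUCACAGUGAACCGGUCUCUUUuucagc
Mir128-2, chr9:112118636-112118711, minus strand: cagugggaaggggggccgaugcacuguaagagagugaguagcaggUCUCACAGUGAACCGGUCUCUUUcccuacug

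Each of the 10 loci overlaps a longer gene on the same strand (build mm10, GENCODE M21). Mir218-1 and Mir218-2 lie in introns of Slit2 and Slit3, which encode secreted guidance proteins of axons. Mir128-1 lies in an intron of R3hdm1, and Mir128-2 in an intron of Arpp21, a gene known from striatal neurons. Mir153 lies at chr12:117250817-117250885 in an intron of Ptprn2, which encodes a protein of dense-core secretory vesicles. The antisense gene Gm5441 spans it on the other strand. Mir137 lies at chr3:118433857-118433929 and overlaps an exon of the noncoding gene Gm26871. Mir138-1 lies at chr9:122682876-122682974 and overlaps an exon of the pseudogene Gm47135. Mir9-1 at chr3:88215598-88215686 lies in an intron of Gm3764 and Mir9-3 at chr7:79505264-79505353 in an intron of Mir9-3hg. Mir9-2 at chr13:83738814-83738885 overlaps an exon of C130071C03Rik. These 3 hosts are long noncoding RNA genes.

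The libraries held 3961630 sense-strand miRNA counts in replicate 1 and 1686822 in replicate 2. Levels are scaled to a total of 1000000 such counts (CPM). Errors are standard deviations (SD) between both animals. A read covers a whole mature miRNA, so levels were not divided by gene length. Reads that fit several loci numbered 3176275 in replicate 1 and 1684373 in replicate 2, or 0.802 and 0.999 per sense-strand count. The full levels of miR-9, miR-128-3p, miR-218-5p and miR-138-5p, which are identical at several loci, were therefore not measured here. The libraries are not copies of 1 library, since their counts differed far beyond sampling noise, with a chi-square of 552 per degree of freedom. P-values below compare the reads of these 2 libraries and say nothing of a condition.

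Together the 10 loci held 5523 counts in replicate 1 and 1649 in replicate 2. That was 1394 and 978 CPM, a mean of 0.119% ± 0.0295 of miRNA counts (SD, n = 2). With at least 10 counts in both libraries as the mark of detection, 5 of the 10 loci were detected, or 50.0%, against 340 of 2202 genes, or 15.4%. Of the 2202 genes, 1445 had 0 counts in both libraries. Among loci with RefSeq mature sequences, detection was 29.1% with all forms specific, 65.6% with some and 11.3% with none. Mir137 alone gave 70.1% of the loci's counts in replicate 1 and 69.3% in replicate 2. The other 9 loci together were at 417 and 300.0 CPM.

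**Figure D1:**
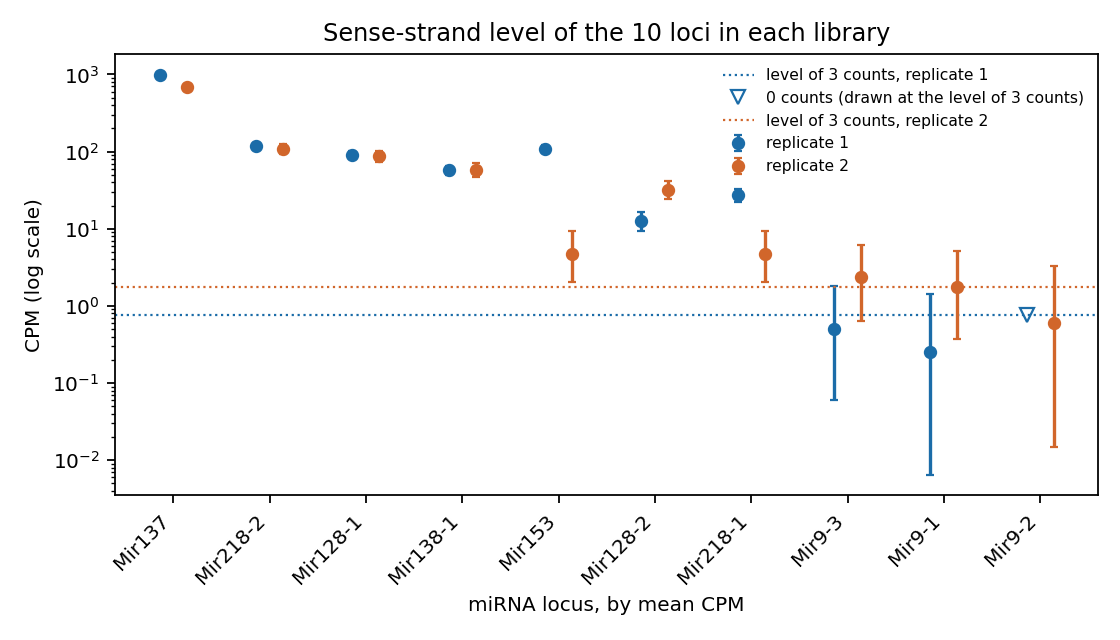
Level of each of the 10 loci in CPM (log axis) in replicate 1 and replicate 2, with exact 95% intervals for counting error. The dotted lines mark the level of 3 counts, and the open triangle is a count of 0. Mir137 lies highest in both libraries, the 3 Mir9 loci lie near the dotted lines, and Mir153, Mir218-1 and Mir128-2 differ between the libraries.

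Mir137 had the highest count of uniquely placed reads among the loci in both libraries. miR-137 is known for restraining the growth of dendrites and for targets that alter chromatin. Mir137 had 3870 counts, or 977 CPM (exact Clopper-Pearson 95% interval 946 to 1008), in replicate 1. In replicate 2 it had 1143 counts, or 678 CPM (639 to 718). Among the 2202 genes it ranked at position 94 in replicate 1 and 100 in replicate 2. The intervals did not overlap, and replicate 2 was lower by a factor of 0.694 (interval 0.649 to 0.741). Log2 ratios compare replicate 2 with replicate 1 after 0.5 CPM was added to both. That of Mir137 was -0.53, with an adjusted p of 1.74e-28 in the exact binomial test. It was not called different, because a call also needed a log2 ratio beyond 1 in either direction. Intervals here and below cover counting error only and leave out the spread between animals. They also treat reads as independent molecules, which reads are not.

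Mir153 showed the widest difference between the libraries among the loci. miR-153 is known from neurons and secretory cells, where its known targets include parts of the vesicle release machinery. In replicate 1 it had 434 counts, or 109.6 CPM (95% interval 99.5 to 120.4). In replicate 2 it had 8 counts, or 4.74 CPM (2.05 to 9.34). The level in replicate 1 was 23.1-fold that in replicate 2, with an exact interval from 11.6 to 53.8. The log2 ratio of -4.39 (adjusted p = 2.93e-54, exact binomial test) was the third lowest of 404 tested genes. Replicate 1 placed Mir153 at position 209 among the 2202 genes and replicate 2 at position 348. Both arms match no other annotated hairpin, and the longest stretch in common with any of them is 10 bases. With 1 library per animal this difference has no replicate check.

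The next loci in order of mean level differed little between the animals. Mir218-2 of the Slit3 intron had 472 counts, or 119 CPM, in replicate 1 and 185 counts, or 109.7 CPM, in replicate 2. miR-218 is known as an abundant miRNA of motor neurons. The mean of the Mir218-2 locus was 114 ± 6.70 CPM (SD, n = 2). Its ratio of replicate 2 to replicate 1 was 0.921 (interval 0.772 to 1.09, adjusted p = 0.435, exact binomial test). Mir128-1 had 359 counts, or 90.6 CPM, and 146 counts, or 86.6 CPM, in the same order. miR-128 is known to rise as neurons mature and to dampen their excitability. The mean of Mir128-1 was 88.6 ± 2.88 CPM (SD, n = 2), and its ratio was 0.955 (0.782 to 1.16, adjusted p = 0.737, exact binomial test). Mir138-1 had 228 counts, or 57.6 CPM, and 97 counts, or 57.5 CPM. miR-138 is known from the synapse, where it limits the size of dendritic spines. The ratio of Mir138-1 was 0.999 with an interval from 0.780 to 1.27, and a difference inside that interval was not detectable at this depth.

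The partner loci Mir128-2 and Mir218-1 were lower and differed between the libraries in opposite directions. Mir128-2 had 50 counts, or 12.6 CPM (95% interval 9.37 to 16.6), in replicate 1 and 54 counts, or 32.0 CPM (24.0 to 41.8), in replicate 2. It was 2.54-fold higher in replicate 2 (1.69 to 3.80, log2 ratio 1.31, adjusted p = 6.61e-06, exact binomial test). Mir218-1 had 107 counts, or 27.0 CPM (22.1 to 32.6), in replicate 1 and 8 counts, or 4.74 CPM (2.05 to 9.34), in replicate 2. It was 5.69-fold higher in replicate 1 (2.79 to 13.5, log2 ratio -2.39, adjusted p = 6.12e-09, exact binomial test). Mir218-1 and Mir153 had the same 8 counts in replicate 2, and both stood under the 10 counts required for detection there.

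The Mir9 loci were at the limit of what these libraries could show. miR-9 is known for its part in the neural progenitor state and in neuron production. Mir9-1 had 1 count in replicate 1 and 3 in replicate 2, and Mir9-2 had 0 and 1. Mir9-3 had 2 counts in replicate 1 and 4 in replicate 2. The highest of these values was 2.37 CPM, and 3 counts, taken as the limit for a count of 0, equal 0.757 CPM in replicate 1 and 1.78 in replicate 2. The two-sided exact interval for the 0 count of Mir9-2 reached 0.931 CPM. These counts do not give the level of miR-9, because neither mature arm is specific to 1 locus. Across all loci with RefSeq mature sequences, 6 of 53 loci without a specific mature form were detected, or 11.3%. That share was 40 of 61, or 65.6%, for loci with some specific forms and 263 of 904, or 29.1%, for loci with all forms specific. The opposite-strand gene Gm25641, which makes miR-9b and overlaps Mir9-1, had 0 counts in both libraries.

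In order of mean level the loci ran Mir137, Mir218-2, Mir128-1, Mir138-1, Mir153, Mir128-2, Mir218-1, Mir9-3, Mir9-1 and Mir9-2. This is an order of uniquely placed counts and not of miRNA abundance. Both arms of Mir137 and Mir153 are specific to 1 locus, against 1 arm at each Mir128 and Mir218 locus and at Mir138-1. The Mir9 loci have no specific arm. Mir137, Mir218-2 and Mir128-1 each lay above the next locus in this order in both libraries, with no overlap of values. The values of Mir138-1 lay inside the wide range of Mir153. From there down, each locus overlapped with the next except Mir218-1 with Mir9-3. In replicate 1 Mir153 stood behind Mir137 and Mir218-2 only. In replicate 2 it was tied with Mir218-1 above only the Mir9 loci.

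In all, 7 of the 10 loci had at least 10 counts in either library and entered the test over 404 genes. Of these 7, 1 was called higher in replicate 2 (Mir128-2) and 2 were called lower (Mir153 and Mir218-1). Over all tested genes 18.3% were called, 9.65% higher and 8.66% lower. The median log2 ratio was -0.12 over the 7 loci and -0.05 over all 404 genes. When the spread between the 2 libraries was taken as the error, in the exact test of edgeR with 1 common dispersion, 6 of 404 genes were called, or 1.49%, with 0.495% higher and 0.99% lower in replicate 2. Mir153 was among them (log2 ratio -4.52, adjusted p = 0.00705), beside Mir122, Mir217, Mir215, Mir301 and Mir451a, which are no members. Mir218-1 (adjusted p = 0.517) and Mir128-2 (adjusted p = 1) were not called in that test. The difference in Mir153 was thus larger than the common spread between these libraries, and those in Mir218-1 and Mir128-2 were not shown to exceed it. That spread came from the same 2 libraries, so this sets genes against one another and is no replicate check.

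**Figure D2:**
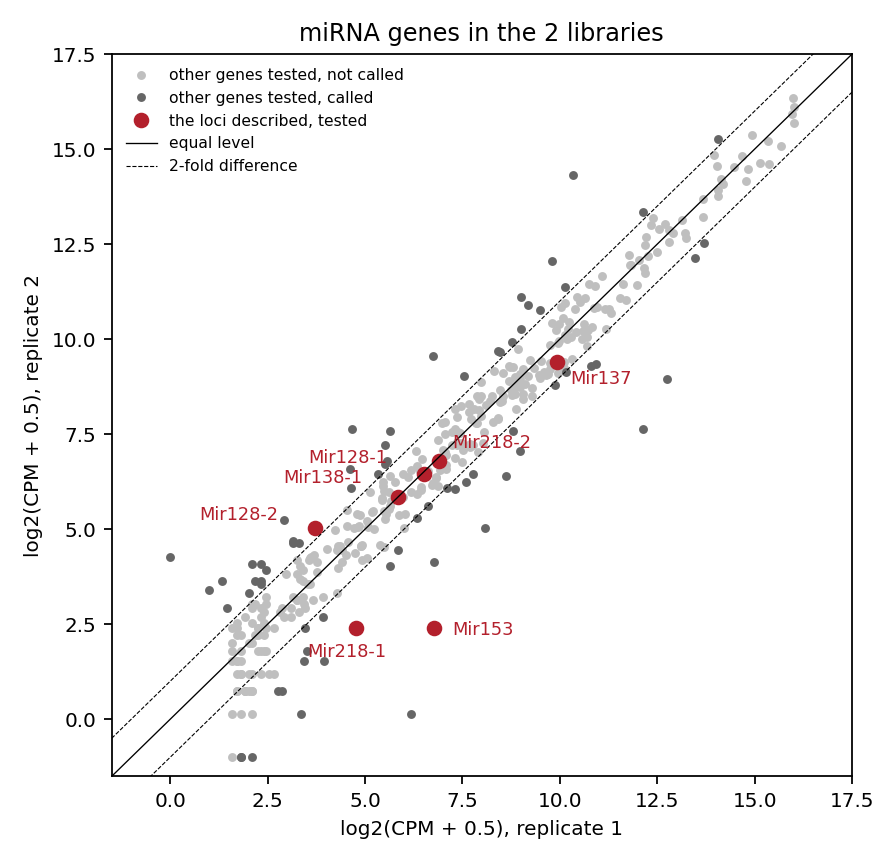
Level of the 404 tested miRNA genes as log2(CPM + 0.5) in replicate 1 (horizontal) and replicate 2 (vertical), with 7 of the loci in red, the line of equal level and dashed lines at a 2-fold difference. Mir218-2, Mir128-1 and Mir138-1 lie on the line, and Mir153 (109.6 and 4.74 CPM) lies far below it.

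Within a library the loci of a pair can be compared without any library total. Of the counts at the Mir218 pair, Mir218-2 gave 81.5% in replicate 1 (95% exact interval 78.1 to 84.6) and 95.9% in replicate 2 (92.0 to 98.2). The Slit3 locus thus held most of the pair's counts in both animals, and the intervals did not overlap. Of the counts at the Mir128 pair, Mir128-1 gave 87.8% in replicate 1 (84.2 to 90.8) and 73.0% in replicate 2 (66.3 to 79.0). The R3hdm1 locus led the Arpp21 locus in both animals, again with intervals that did not overlap. Mir138-1 gave 58.3% of the counts at the Mir138 pair in replicate 1 (53.2 to 63.2) and 70.8% in replicate 2 (62.4 to 78.3), and these intervals overlapped. The shares cover reads that fit 1 locus only, so they do not give the share of the common mature arm that each locus made.

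**Figure D3:**
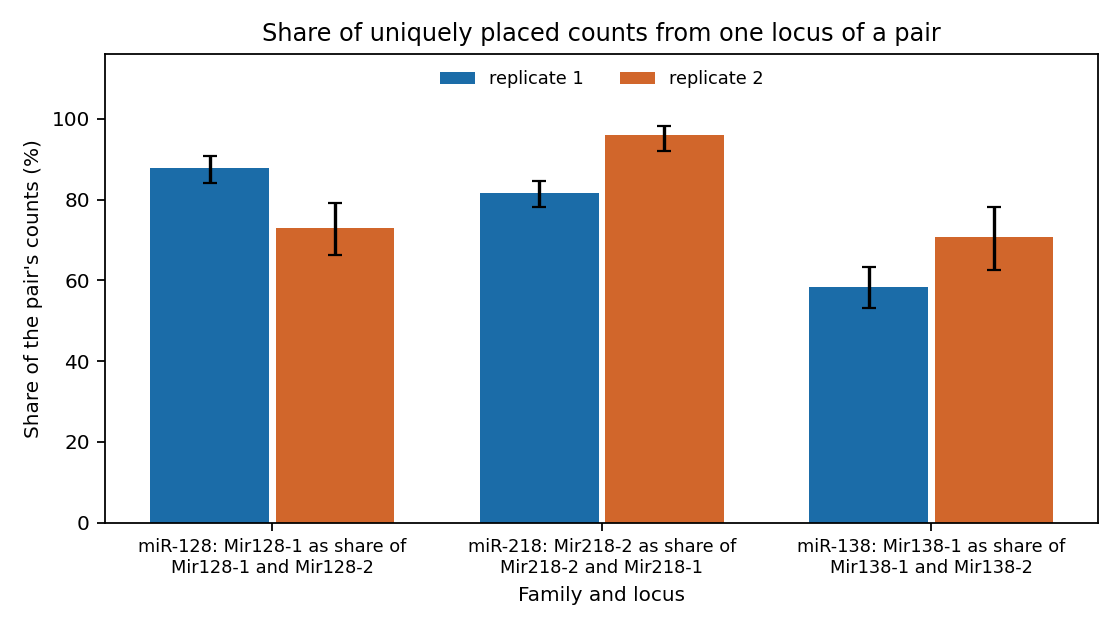
Share in percent of the counts of a pair of loci that came from the named locus, for miR-128, miR-218 and miR-138, in replicate 1 and replicate 2 with exact 95% intervals. Mir218-2 holds 81.5% in replicate 1 and 95.9% in replicate 2, and Mir128-1 holds 87.8% and 73.0%.

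Summed over both loci, the pairs differed less than their minor loci did. The Mir128 pair was at 103 CPM in replicate 1 and 119 CPM in replicate 2. The Mir218 pair was at 146 and 114 CPM, and the Mir138 pair at 98.7 and 81.2 CPM, in the same order. Set against Mir137 in the same library, Mir218-2 had 12.2 counts per 100 Mir137 counts in replicate 1 and 16.2 in replicate 2. Mir128-1 had 9.28 and 12.8, Mir138-1 had 5.89 and 8.49, and Mir153 had 11.2 and 0.700. Relative to Mir137, the first 3 were thus higher in replicate 2 and Mir153 was lower there. The CPM of these 3 were not higher in replicate 2. Their ratios to replicate 1 were 0.921, 0.955 and 0.999, and that of Mir137 was 0.694.

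Neuroendocrine miRNAs, a list of 7 genes for hormone-secreting cells, summed to 36907 CPM in replicate 1 and 47026 CPM in replicate 2, most of it from Mir375. In uniquely placed counts Mir375 and Mir7b lay above Mir137 in both libraries, and the other 5 genes lay below it. Reads that fit several loci were set aside, so this is not an order of miRNA abundance. Mir375, which is known from hormone-secreting endocrine cells, had 31129 CPM in replicate 1 and 42377 CPM in replicate 2. For each Mir137 count there were 31.9 Mir375 counts in replicate 1 and 62.5 in replicate 2. Mir7b, which is abundant in neurosecretory cells, had 4570 and 3754 CPM. Among all 404 tested genes 9.65% were called higher and 8.66% lower in replicate 2. Of the 7 neuroendocrine genes, 0 were called higher and 2 lower, Mir182 (447 and 191 CPM) and Mir7-2 (138 and 67.0 CPM). Both calls were lost in the edgeR exact test with common dispersion (adjusted p = 1 for both), and that of Mir7-2 also with 5 CPM added. Mir7-1 (462 and 472 CPM), Mir183 (151 and 149 CPM) and Mir96 (10.1 and 14.8 CPM) were not called. Mir375 had a log2 ratio of 0.45, and its size kept it from being called.

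Other miRNAs known from neurons gave a summed level of 3716 CPM in replicate 1 and 4188 CPM in replicate 2. Detection was 12 of 17 genes, or 70.6%, against 15.4% of all 2202 genes. The highest were Mir134 (1666 and 1064 CPM), which limits dendritic spines and lies in an imprinted cluster, Mir149 (1010 and 1353 CPM) and Mir132 (434 and 965 CPM). Among all 404 tested genes 9.65% were called higher and 8.66% lower in replicate 2. Mir132, which is induced by neuronal activity, was the 1 gene of 13 tested that was called, and it was higher in replicate 2 (log2 ratio 1.15). This call was lost in the edgeR exact test with common dispersion (adjusted p = 1). It is also expressed in the adrenal cortex. Mir323 had 371 and 551 CPM. Mir135a-2 had 10 counts in replicate 1 and 0 in replicate 2 and was not called. Mir135b, Mir129-2, Mir138-2, Mir212, Mir384, Mir129-1, Mir488 and Mir383 were detected at 10.1 to 86.6 CPM.

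The defining neuronal miRNA, miR-124, had 1 count over its 3 loci. Mir124a-1 had 0 counts in replicate 1 and 1 in replicate 2, and Mir124a-2 and Mir124a-3 had 0 in both. It is made from several loci, like miR-9, so its level cannot be read from these counts. The glial list held Mir338, known from myelinating cells, with 176 and 304 CPM, and Mir219a-1 with 12.1 and 8.30 CPM, neither of them called. Mir219a-2 had 4 and 2 counts, and Mir219b had 0 in both, with 4 and 2 counts on the strand opposite to it. Reads that fit several loci were set aside here too, so these low counts do not show that miR-219 was absent. The naming of the 10 loci as neuronal therefore rests on background knowledge, and these tables do not show which cells of the gland held them.

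**Figure D4:**
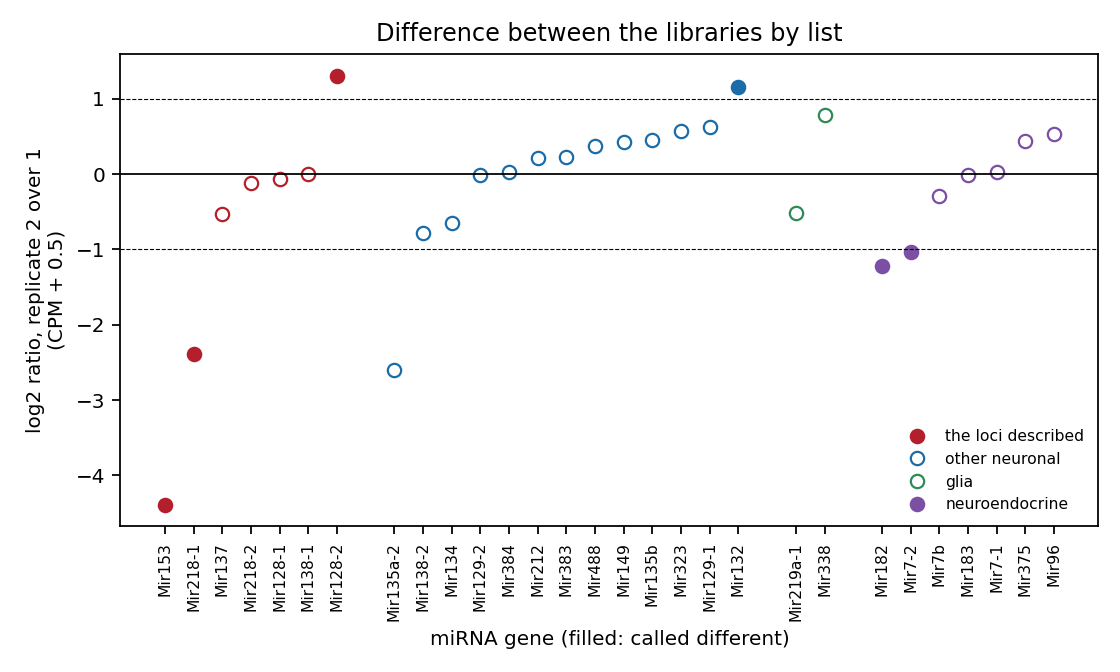
Log2 ratio of replicate 2 over replicate 1 (CPM + 0.5) for each tested gene of the 10 loci, the other neuronal list, the glial list and the neuroendocrine list. Filled points were called different. Mir153 at -4.39 is the lowest point.

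Markers of other tissues also differed between the libraries, and their part in the differences of Mir153, Mir218-1 and Mir128-2 was not tested. Mir122 of hepatocytes was at 1299 CPM in replicate 1 and 20602 CPM in replicate 2. For the counts of calls below, the shares over all 404 tested genes were 9.65% higher and 8.66% lower in replicate 2. The red blood cell list (3 genes, 2 called lower) summed to 7248 and 595 CPM. Its other gene, Mir486 (12.4 and 19.6 CPM), was higher in replicate 2 and was not called. In the either-strand column Mir486 and Mir451a had 0 counts in both libraries, so their values rest on the sense-strand column alone. The striated muscle list (9 genes, 3 tested and all 3 called higher) summed to 1143 and 2697 CPM, with Mir133a-2 at 0 in both. Most of that sum came from Mir206 (1130 and 2646 CPM). Reads that fit several loci were set aside, so a low count in these lists does not show that a miRNA was absent. The epithelial list (7 genes, 2 called lower) summed to 1318 and 936 CPM. Of its genes, Mir203 (533 and 594 CPM) and Mir205 (44.2 and 63.4 CPM) were higher in replicate 2 and not called. The rest of that list was lower there. In the edgeR exact test with common dispersion, the calls of Mir122 and Mir451a held. Those of Mir144 of red blood cells, of Mir206, Mir208b and Mir499 of muscle and of Mir200b and Mir200c of epithelium were lost. Mir126a of endothelium (65222 and 83391 CPM) and Mir143 of stroma (41567 and 37940 CPM) were not called. The stroma list also held Mir145, a symbol without a match, and Mir145a (716 and 505 CPM) was not called either.

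For each tested locus the gene of most similar level in both libraries was sought among 397 other tested genes, by distance on log2(CPM + 0.5). Mir300 (1001 and 666 CPM, distance 0.04) was nearest to Mir137. Mir294 (131 and 103 CPM, 0.16) was nearest to Mir218-2, Mir204 (85.1 and 91.3 CPM, 0.12) to Mir128-1 and Mir1249 (62.3 and 57.5 CPM, 0.11) to Mir138-1. Mir181a-2 (12.9 and 33.2 CPM, 0.06) was nearest to Mir128-2. The other pairs were less close, with Mir190b (14.6 and 5.93 CPM) at a distance of 0.91 from Mir218-1. Mir301b (109.3 and 17.2 CPM) lay at 1.75 from Mir153, so no other tested gene was close to Mir153 in both level and ratio. Similar ratios did occur at higher levels, as in Mir301 (4488 and 198 CPM, log2 ratio -4.50), named here after its values were seen. With 2 libraries such likeness is a description of 2 values.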

How the data were processed

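The authors deposited raw read counts for each miRNA gene, as 1 table per library, on build mm10 with annotation M21 per the file lists beside them. Aligner, trimming and read filters: not given in the sources used here. Each table had an either-strand column and 1 column per strand. The sense-strand column was used, and 4 summary rows, 66.3% of reads in replicate 1 and 74.3% in replicate 2, were left out of totals. All 2202 identifiers matched GENCODE M21.

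A two-sided exact binomial test compared each gene's counts with the ratio of library totals, wherever either library had at least 10 counts. P-values were adjusted over all of them by the Benjamini-Hochberg method. A call needed an adjusted p under 0.05 and a log2 ratio (CPM + 0.5) above 1 or below -1. The test was run first on simulated counts with sampling noise only and set fold changes. These libraries differed far beyond sampling noise, so that run does not give the error rate of the test here. No model with replicates could be fitted, since the 1 group held 2 libraries. An exact test of edgeR 4.0.16, with a common dispersion of 0.188 estimated over both libraries as 1 group, was an alternative. So were TMM and DESeq2 1.42.0 scaling, the either-strand counts, other thresholds and leaving out each replicate. Mature sequences were matched exactly against the annotated hairpins, and the genome itself was not searched. R 4.3.3, Python 3.11.15, numpy 2.4.6, pandas 2.3.3, scipy 1.17.1 and matplotlib 3.10.9 were used.

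The members, lists and tests were chosen with earlier results of these data known. All 10 members are named, as are listed neuronal, glial and neuroendocrine genes with at least 10 counts in both libraries or a call, the gene nearest in level to each tested member, and miRNA genes within 10 kb or overlapping. Mir3093 near Mir9-1 and Gm24155 near Mir137 had 0 counts in both libraries.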

Additional observations from a re-analysis of the deposited data

How the results depend on the processing

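With 2 libraries of 1 group, no difference between them has a replicate check. Mir153, Mir218-1 and Mir128-2 were called under every threshold, filter, scaling and strand column tried with the exact binomial test. Taking the spread between the libraries as the error, in edgeR's exact test with a common dispersion, left 1 of these 3 calls, Mir153, and 6 calls among all 404 genes against 74. All genes called numbered 132 at a log2 ratio over 0.58 and 251 at any size, where Mir137 was called as well. TMM scaling moved log2 ratios by -0.11 and the median of all genes from -0.05 to -0.16, and no direction of a member turned. The near-zero log2 ratio of Mir138-1 was -0.00118, and it turned to 0.0109 with either-strand counts; it was not called with either. With at least 1 count required in both libraries 9 members were detected, with at least 100 counts 3, and 5 to 7 with either replicate left out. The summed level of the members was 360 when scaled to 1000000 reads of the whole library, against 1186 CPM, since that total also holds reads outside miRNA genes. It was 978 to 1394 CPM with either replicate left out. No paired analysis was possible because the series holds 1 group, so no replicate number is shared between groups. The depth of replicate 2, where 3 counts are 1.78 CPM, limits what can be said of Mir153, Mir218-1 and the Mir9 loci.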
